A study of Mus musculus with 21 samples.

Results

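Transcripts that mark fibroblasts and mural cells (pericytes and vascular smooth muscle) were read out of bulk RNA from CD31-positive cells sorted from mouse breast tumours. The 34 genes were chosen by symbol from 2 marker lists, 20 of fibroblasts and 14 of mural cells, and each of them had a row among the 45706 genes of the deposited table. The tumours were E0771.lmb, a mouse mammary carcinoma line, grown in adult mice and taken on day 14 to 16. The 11 wild-type libraries (WT) came from 9 tumours. The 10 knockout libraries (KO) came from 8 tumours of Shb iECKO mice, in which both copies of floxed Shb, a signalling adaptor gene, are removed by Cdh5-CreERt2, a Cre that is driven by an endothelial promoter and acts after tamoxifen. In the protocol mice of both genotypes received tamoxifen before the tumours were grown. It also names a Vav1-cre line, to which no library is assigned, and a magnetic step on CD45-positive cells that came before sorting for CD31. The Cdh5 promoter directs the deletion to endothelial cells and not to fibroblasts or mural cells. In bulk RNA the cell of origin of a transcript is not known, and fewer cells of a type and less RNA per cell cannot be told apart. Libraries are named here by experiment, genotype and replicate, so that E4-WT2 is the second wild-type library of the fourth experiment.

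Fibroblasts lay down the collagen scaffold of a tissue. Collagens I, III and V form fibrils, collagen VI forms beaded filaments around cells, small proteoglycans such as decorin and lumican coat the fibrils, and proteases and their inhibitors remodel them. Mural cells wrap the endothelial tube: pericytes lie on capillaries, are recruited by endothelial platelet-derived growth factor B through the receptor Pdgfrb, and carry the potassium channel of Kcnj8 and Abcc9, while smooth muscle cells carry contractile proteins such as Acta2, Tagln and Myh11. In tumours the mural coat is often thin or loosely attached, and fibroblasts are the main source of the collagen-rich stroma.

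Promoters of 5 genes are shown because they stand for the 3 patterns described below: Col6a3, Col6a2 and Col5a1 were highest in E4-WT2, Col3a1 was highest in E3-WT2, and Rgs5 was the mural gene with the greatest maximum. Each sequence is the 250 bases before the RefSeq transcript start on the gene's strand (GRCm38), at genes whose RefSeq start equals the GENCODE gene start. Capitals mark the GC box (GGGCGG), the box named CCAAT, and the TATA box (TATAAA) on either strand.
Col6a3 (chr1:90843972-90844221, minus strand): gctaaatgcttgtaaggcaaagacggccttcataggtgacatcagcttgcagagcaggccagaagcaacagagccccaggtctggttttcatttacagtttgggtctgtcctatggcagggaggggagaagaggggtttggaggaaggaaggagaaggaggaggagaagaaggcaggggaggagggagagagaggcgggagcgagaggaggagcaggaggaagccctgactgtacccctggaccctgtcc
Col6a2 (chr10:76623631-76623880, minus strand): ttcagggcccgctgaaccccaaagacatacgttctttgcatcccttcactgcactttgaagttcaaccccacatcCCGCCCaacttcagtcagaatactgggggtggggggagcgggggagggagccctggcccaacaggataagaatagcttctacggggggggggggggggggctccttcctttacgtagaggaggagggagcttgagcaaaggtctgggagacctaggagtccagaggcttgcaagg
Col5a1 (chr2:27886175-27886424, plus strand): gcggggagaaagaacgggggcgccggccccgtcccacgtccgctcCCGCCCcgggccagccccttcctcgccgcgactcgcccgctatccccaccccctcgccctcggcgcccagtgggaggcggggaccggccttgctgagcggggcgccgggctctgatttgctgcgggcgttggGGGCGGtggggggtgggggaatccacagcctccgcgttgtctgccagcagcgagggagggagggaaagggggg
Col3a1 (chr1:45311288-45311537, plus strand): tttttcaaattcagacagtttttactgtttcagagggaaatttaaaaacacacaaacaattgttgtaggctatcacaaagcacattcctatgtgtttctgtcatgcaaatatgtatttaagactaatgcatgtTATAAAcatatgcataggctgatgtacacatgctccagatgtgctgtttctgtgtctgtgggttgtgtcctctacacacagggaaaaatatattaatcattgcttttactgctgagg
Rgs5 (chr1:169655251-169655500, plus strand): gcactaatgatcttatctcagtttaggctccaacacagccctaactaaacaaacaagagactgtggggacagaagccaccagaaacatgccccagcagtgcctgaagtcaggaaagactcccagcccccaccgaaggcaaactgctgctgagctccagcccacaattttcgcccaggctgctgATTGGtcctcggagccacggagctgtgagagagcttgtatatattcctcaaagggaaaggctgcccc
The Col5a1 window held 2 copies of GGGCGG and was 76.4% G and C, the Col6a2 window held 1 copy, and the Col6a3 window held no match to any of the motifs. The Col3a1 window was 35.2% G and C and held TATAAA, and the Rgs5 window held CCAAT. Of the 34 genes, 22 had a window in the RefSeq table. GGGCGG was found at 9 of them, CCAAT at 6, TATAAA at 4 and the CArG box at 0. The CArG box, the motif of serum response factor, was taken as CC, then 6 letters of A or T, then GG. Over all 32851 windows of the same length these motifs were present in 32.7%, 33.9%, 12.4% and 1.47%. The counts take in windows whose RefSeq start differs from the GENCODE start, as at Acta2, where most of the window lies inside the gene. Tagln and Myh11 had no window. A match describes the letters and no binding was measured.

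By the column headers the libraries belonged to 4 experiments. There were 3 WT and 2 KO libraries in experiments 1 and 4, 3 WT and 4 KO in experiment 2, and 2 of each in experiment 3. The sample titles instead list 3 KO libraries in each of experiments 2 and 4. A pair of KO columns shares the header that names E2-KO3. They hold different values and are called E2-KO3a and E2-KO3b. No column names KO replicate 3 of experiment 4, so either may belong to that experiment. The values of E2-KO3b carry more decimals than those of the other columns of experiment 2, as do the values of experiment 4. Both were kept in experiment 2. Shb ran from 17.3 to 74.3 TPM (median 31.8) in the libraries labelled WT and from 6.00 to 52.7 TPM (median 13.7) in those labelled KO, and the ranges overlapped. In experiment 1 Shb was not lower in the libraries labelled KO (36.3 and 52.7 TPM) than in WT (17.3, 34.9 and 74.3 TPM). The endothelial genes Pecam1, which encodes CD31, and Cdh5 were present in each library. Pecam1 was 710 to 1960 TPM in 18 libraries, and 95.0 TPM in E4-WT2, 242 TPM in E4-KO2 and 461 TPM in E2-WT1. Those 3 libraries held Krt8, an epithelial keratin gene, at 269, 69.4 and 66.3 TPM, against 0 to 118 TPM elsewhere. They differed in the epithelial genes Krt18 and Epcam. These were both listed at 0 in E4-WT2, and were 23.7 and 16.0 TPM in E4-KO2 and 0.71 and 0.46 TPM in E2-WT1. E3-WT2 held Lyz2, a myeloid gene, at 1572 TPM and Ptprc, which encodes CD45, at 109 TPM. The unit TPM is a read count scaled by gene length and library total, so levels of different genes can be set side by side. The number of reads behind them is unknown. Genes above 0 numbered 12550 to 20526 in WT libraries and 12178 to 19022 in KO libraries. In experiment 2 they numbered 19884, 19228 and 18024 in WT, and 18320, 14933, 12178 and 12515 in E2-KO1, E2-KO2, E2-KO3a and E2-KO3b. A gene listed at 0 in a library with few genes may have been missed there.

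Marker transcripts of both kinds were present at low levels beside Pecam1 at a median of 1235 TPM. By the median over 21 libraries the order was Pcolce (49.5 TPM), Mylk (31.9), Timp1 (25.7), Rgs5 (23.5), Col3a1 (23.2), Abcc9 (20.4), Col6a3 (17.6) and Tagln (13.8). Neighbours in this order had ranges over libraries that overlapped widely: Timp1 spanned 0 to 52.5 TPM and Rgs5 0 to 95.3 TPM. Dcn and Lum, which are often used to define fibroblasts, were near the bottom. Dcn was listed at 0 in 10 libraries and Lum in 14, while Col1a1 and Col3a1 were above 0 in each. Among the mural genes Cnn1 was listed at 0 in 18 libraries and reached 1 TPM in none, Cspg4 reached 1 TPM in 9, Vtn in 9, Myh11 in 8 and Higd1b in 6. The sum of the 20 fibroblast genes ran from 103 to 1546 TPM, and that of the 14 mural genes from 31.9 to 316 TPM.

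**Figure D1:**
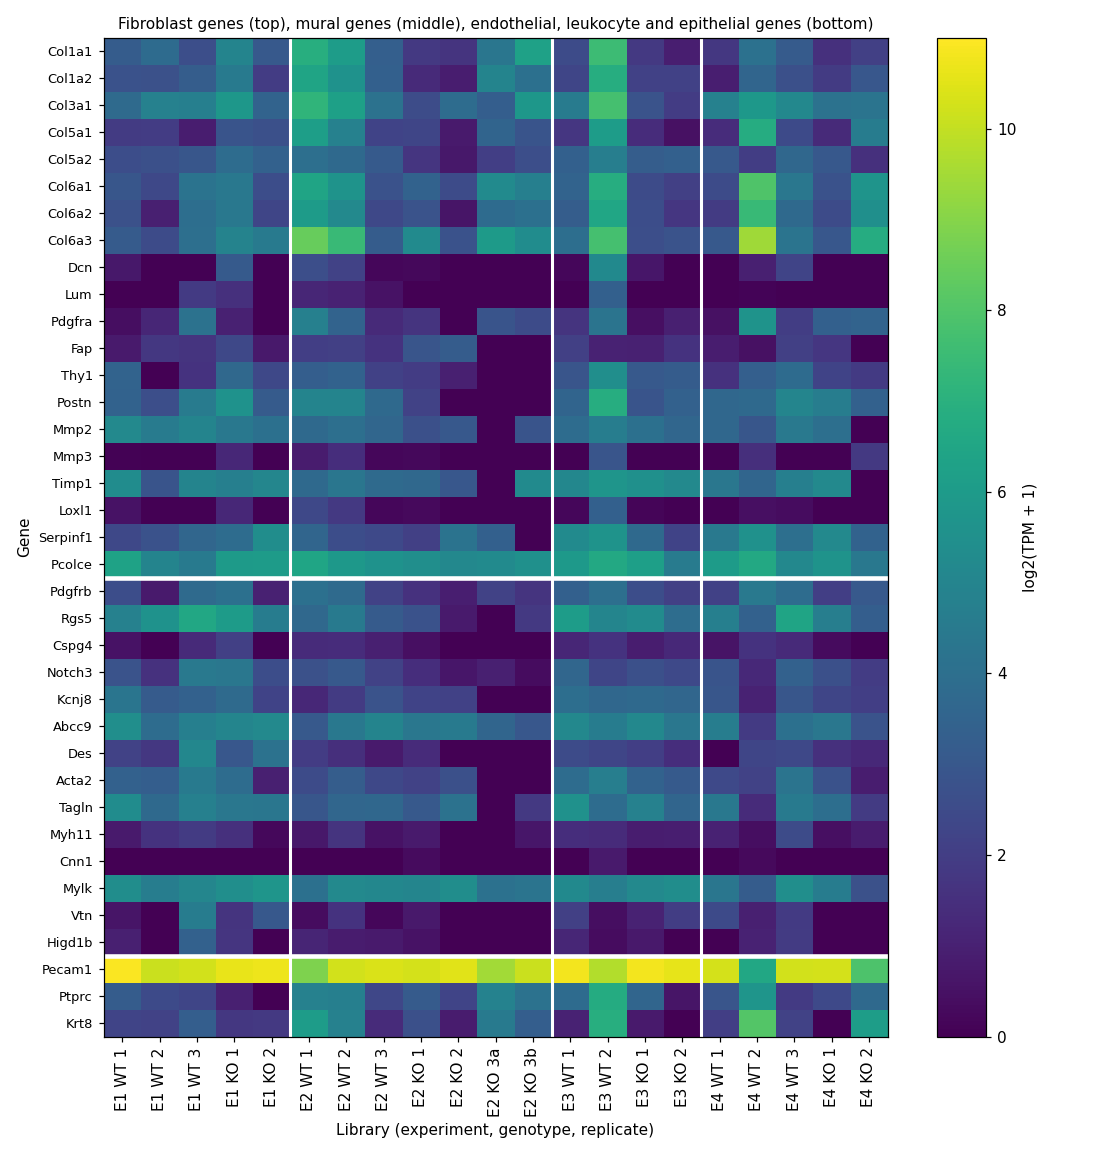
Level of the 20 fibroblast genes, the 14 mural genes and Pecam1, Ptprc and Krt8 (rows) in 21 libraries (columns, E for experiment), as log2(TPM + 1) in colour; white lines part the gene groups and the experiments. The collagen rows are bright in E2-WT1, E2-WT2, E3-WT2 and E4-WT2, and Dcn and Lum are dark in most columns.

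High values of the fibroblast genes were concentrated in a few WT libraries. Of the 20 genes, 13 had their highest value in E3-WT2 and 5 had it in E4-WT2. The sums over the 20 genes were 1546 TPM in E4-WT2, 1483 TPM in E3-WT2, 1141 TPM in E2-WT1 and 651 TPM in E2-WT2. The next highest sum, 396 TPM, was in E1-KO1.

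Collagen I, the main fibril protein, is built from the chains of Col1a1 and Col1a2. Col1a1 ran from 2.41 to 183 TPM in WT (median 9.03, mean 39.8 ± 59.7, SD, n = 11) and from 0.900 to 77.1 TPM in KO (median 2.88, mean 14.7 ± 23.9, SD, n = 10). Its highest values, 183, 119 and 67.5 TPM in WT, had a KO counterpart in 77.1 TPM in E2-KO3b, so the groups overlapped. Col1a2 ran from 0.871 to 114 TPM in WT (median 8.48) and from 0.830 to 29.9 TPM in KO (median 3.38). The ratio of Col1a1 to Col1a2 had a median of 1.40 over the 18 libraries in which both reached 1 TPM, and ran from 0.453 to 4.91.

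Col3a1, the chain of collagen III, was the most abundant fibril collagen by its median. It ran from 13.1 to 214 TPM in WT (median 27.5, mean 60.1 ± 63.6, SD, n = 11) and from 2.92 to 55.8 TPM in KO (median 12.1, mean 19.2 ± 19.7, SD, n = 10). Of the 10 KO libraries 5 lay below each WT library, and 4 WT libraries lay above each KO library. Collagen V, which starts fibrils, showed 2 different patterns: Col5a1 reached 110 TPM in E4-WT2, where Col5a2 was 3.02 TPM. Their ratio was 36.3 in that library, with a median of 0.554 over the 18 libraries in which both reached 1 TPM. Col3a1 and Col5a2 are neighbours on chromosome 1, with 24614 bases between them.

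Col6a1, Col6a2 and Col6a3 encode the 3 classical chains of collagen VI. Col6a3 was 694 TPM in E4-WT2, 352 and 176 TPM in E2-WT1 and E2-WT2, 216 TPM in E3-WT2 and 112 TPM in E4-KO2. The other 16 libraries ranged from 4.69 to 62.9 TPM. Col6a1 reached 249 TPM and Col6a2 167 TPM in E4-WT2, where Col1a1 was 16.4 TPM, Dcn 0.97 TPM and Lum 0.09 TPM. The ratio of Col6a3 to Col1a1 was 42.4 there, against a median of 2.75 over the 20 libraries in which both reached 1 TPM. Col6a1 and Col6a2 lie 85161 bases apart on chromosome 10. Their ratio had a median of 1.30, from 0.942 to 2.72 over the 19 libraries in which both reached 1 TPM. In E1-WT2 and E2-KO2, which were left out, Col6a1 was 4.26 and 4.66 TPM and Col6a2 0.980 and 0.560 TPM. By these values E4-WT2 had the highest collagen VI, Col5a1, Pdgfra and Krt8 and the lowest Pecam1 of the 21 libraries, with Dcn and Lum under 1 TPM.

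Dcn encodes decorin and Lum encodes lumican, the proteoglycans that coat collagen fibrils; the genes lie 46984 bases apart on chromosome 10. Dcn was 36.6 TPM in E3-WT2, 7.58 TPM in E1-KO1, 5.21 and 3.46 TPM in E2-WT1 and E2-WT2 and 3.71 TPM in E4-WT3. It was below 1 TPM in the other 16 libraries. Lum was 9.44 TPM in E3-WT2 and reached 1 TPM in 4 other libraries. Loxl1, a cross-linking enzyme, was 9.23 TPM in that same library and reached 1 TPM in 3 others. Pcolce, which speeds the trimming of procollagen, was in contrast at 20.2 to 99.4 TPM in each library, with 59.4 TPM as the WT median and 43.6 TPM as the KO median. Serpinf1, which encodes an anti-angiogenic secreted factor, ran from 4.21 to 49.5 TPM in WT and from 0 to 40.8 TPM in KO.

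Among receptors and surface proteins, Pdgfra, the fibroblast receptor for platelet-derived growth factors, ran from 0.310 to 49.8 TPM in WT (median 2.98) and from 0 to 10.2 TPM in KO (median 1.60). Thy1, a glycoprotein of the cell surface, ran from 0 to 42.0 TPM in WT (median 8.77) and from 0 to 12.0 TPM in KO (median 3.21). Fap, a protease of activated fibroblasts, was highest in other libraries, at 8.15 and 6.36 TPM, in E2-KO2 and E2-KO1, and 0.405 to 3.29 TPM in WT.

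Postn, the matrix protein periostin, ran from 5.25 to 114 TPM in WT (median 12.7, mean 26.6 ± 30.6, SD, n = 11) and from 0 to 47.7 TPM in KO (median 7.07, mean 10.9 ± 14.8, SD, n = 10). Of the 4 KO libraries of experiment 2, 3 were listed at 0 and the fourth at 3.49 TPM. WT of that experiment held 12.5, 30.2 and 30.6 TPM. The 3 libraries listed at 0 also had the fewest genes above 0 in that experiment. Mmp2, a gelatinase, ran from 6.63 to 34.8 TPM in WT (median 15.2, mean 18.6 ± 8.75, SD, n = 11) and from 0 to 19.9 TPM in KO (median 9.32, mean 9.65 ± 6.92, SD, n = 10). Of the WT libraries 5 lay above each KO library and 4 KO libraries lay below each WT library. Timp1, an inhibitor of such proteases, had a KO median of 29.0 TPM and a WT median of 19.3 TPM. Mmp3, stromelysin 1, was listed at 0 in 12 libraries and was highest at 6.50 TPM in E3-WT2.

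Of the 14 mural genes 5 had their highest value in E1-WT3, while Acta2 and Cnn1 were highest in E3-WT2 and Pdgfrb in E4-WT2, where many collagens peaked. Rgs5, a G protein regulator of pericytes, ran from 8.03 to 95.3 TPM in WT (median 27.2, mean 39.0 ± 30.4, SD, n = 11) and from 0 to 64.2 TPM in KO (median 11.4, mean 18.3 ± 20.4, SD, n = 10). It was highest in E1-WT3, as were Notch3, Des, Vtn and Higd1b, at 21.1, 33.4, 23.5 and 9.78 TPM. The 4 KO libraries of experiment 2 held Rgs5 at 5.82, 0.750, 0 and 2.56 TPM, all under the 3 WT libraries of that experiment at 12.0, 21.3 and 8.03 TPM. Notch3, the receptor through which endothelial ligands mature the mural coat, ran from 1.40 to 21.1 TPM in WT (median 6.08) and from 0.273 to 19.4 TPM in KO (median 3.65).

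Pdgfrb, the pericyte receptor, which fibroblasts carry too, ran from 0.750 to 21.0 TPM in WT (median 12.8, mean 10.3 ± 6.37, SD, n = 11) and from 0.920 to 15.7 TPM in KO (median 3.18, mean 4.40 ± 4.42, SD, n = 10). Its highest value was in E4-WT2, where Rgs5 was 9.72 TPM and Cspg4, the pericyte proteoglycan NG2, 2.10 TPM. Cspg4 was highest at 3.25 TPM in E1-KO1. Vtn, which encodes vitronectin, and Higd1b, a small mitochondrial protein gene used as a pericyte marker, had medians of 0.700 and 0.450 TPM over the 21 libraries.

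Kcnj8 and Abcc9 encode the pore and the regulatory subunit of a potassium channel and lie 16247 bases apart on chromosome 6. Kcnj8 ran from 1.07 to 18.5 TPM in WT (median 6.67) and from 0 to 13.1 TPM in KO (median 3.64). Abcc9 ran from 2.68 to 42.0 TPM in WT (median 23.3) and from 6.13 to 35.2 TPM in KO (median 19.6). Kcnj8 was below Abcc9 in each of the 19 libraries in which both reached 1 TPM, with a median ratio of 0.372.

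Among contractile genes, Acta2, smooth muscle actin, ran from 3.51 to 25.2 TPM in WT (median 8.90, mean 11.1 ± 7.57, SD, n = 11) and from 0 to 13.8 TPM in KO (median 4.43, mean 4.80 ± 4.66, SD, n = 10). Of the WT libraries 4 lay above each KO library, and 5 KO libraries lay below each WT library. Tagln, an actin-binding protein gene, ran from 1.59 to 45.9 TPM in WT (median 13.8) and from 0 to 27.2 TPM in KO (median 13.0). Myh11, the myosin of mature smooth muscle, was highest at 4.74 TPM in E4-WT3. Mylk, myosin light chain kinase, had medians of 31.9 TPM in WT and 33.4 TPM in KO. Des, the filament protein desmin, ran from 0 to 33.4 TPM in WT and from 0 to 16.9 TPM in KO.

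**Figure D2:**
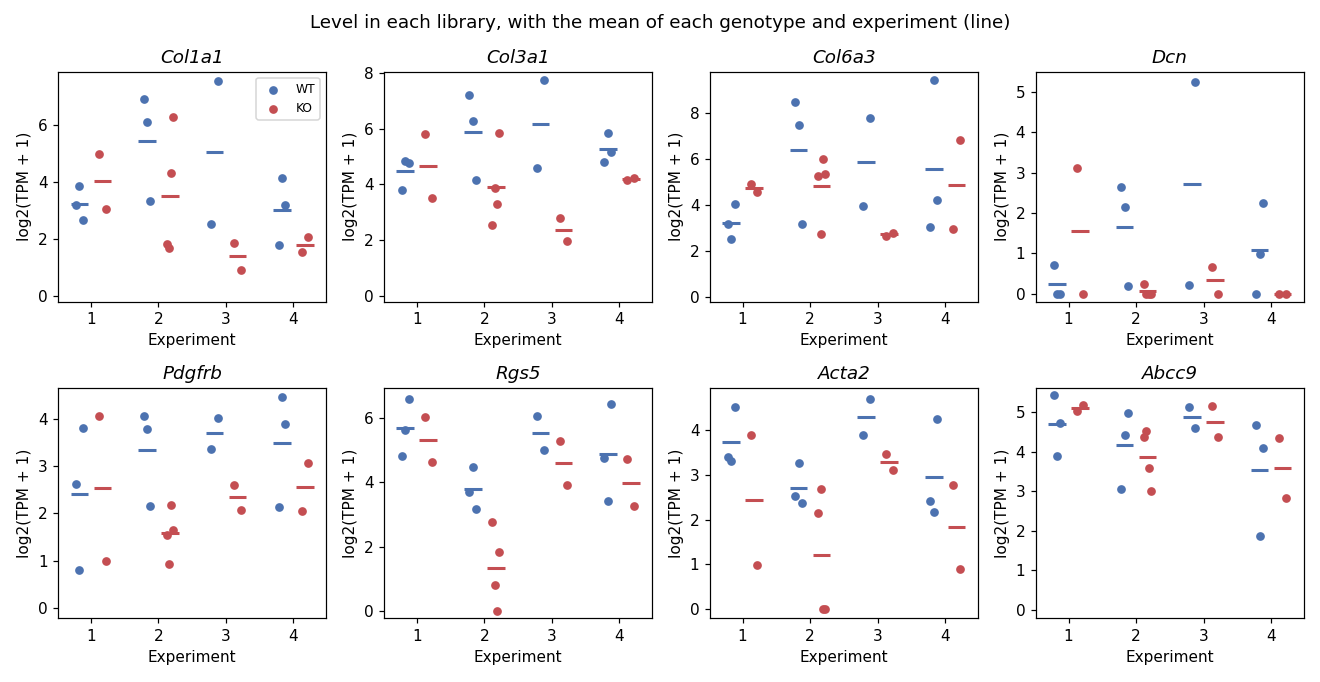
Level of 8 genes as log2(TPM + 1) by experiment; each point is a library (WT blue, KO red) and each line the mean of a genotype within an experiment. Points of Col1a1, Col3a1 and Col6a3 spread widely within WT, Acta2 means are lower in KO in each experiment, and Abcc9 means lie close together.

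Exons of 9 of the 34 genes (Abcc9, Col3a1, Col5a1, Des, Mylk, Notch3, Pcolce, Pdgfra and Tagln) overlap exons of another annotated gene, in 3 of them on the same strand. How reads were assigned there is not given in the sources used here, so their values could hold reads of a neighbour.

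The comparison of KO with WT asks whether loss of endothelial Shb went with another amount of stromal transcripts among the sorted cells. No fibroblast or mural gene passed the test. Of the 34 genes, 25 (16 fibroblast and 9 mural) had at least 1 TPM in at least 10 libraries and were tested with the other genes, 13503 in all. Of the tested genes 0 of 25 passed an adjusted p of 0.05 by limma with experiment in the model, where 1 of 13503 genes (0.00741%) did; the smallest adjusted p among the 25 was 0.820, and over 40 alternatives of the fit the smallest was 0.576. At an unadjusted p under 0.05, 7 of 25 were lower in KO, beside 666 of all genes (4.93%), and 0 of 25 were higher, beside 128 (0.948%). The 7 were Col1a1, Col3a1, Postn, Mmp2, Pdgfrb, Rgs5 and Acta2. With library medians set equal, which moved the median difference of all genes from -0.11 to -0.01, the genes at an unadjusted p under 0.05 were 474 lower and 521 higher in KO, and the 25 genes had 5 lower and 0 higher.

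Differences of KO minus WT on the log2(TPM + 1) scale, which understates changes of low genes, were -1.62 ± 0.52 (SE) for Col3a1, -1.59 ± 0.59 for Postn, -1.46 ± 0.69 for Col1a1 and -1.20 ± 0.43 for Mmp2. Among mural genes they were -1.29 ± 0.43 for Rgs5, -1.27 ± 0.43 for Acta2 and -1.04 ± 0.45 for Pdgfrb. The medians were -0.98 over the 16 tested fibroblast genes and -0.60 over the 9 tested mural genes, beside -0.11 over all genes tested. All 16 fibroblast genes and 8 of 9 mural genes had a value below 0, as did 64% of all genes tested. These counts leave out the 9 genes that failed the filter on low values and describe the genes that passed it. Fap had 0.19 with quantile normalization and -0.21 without. Abcc9, at -0.01 ± 0.34, had a value above 0 in each of 3 other scalings, 0.05 to 0.12, and Mylk was at 0.02 ± 0.29. The 95% interval was -0.72 to 0.70 for Abcc9, and -0.58 to 0.63 for Mylk.

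**Figure D3:**
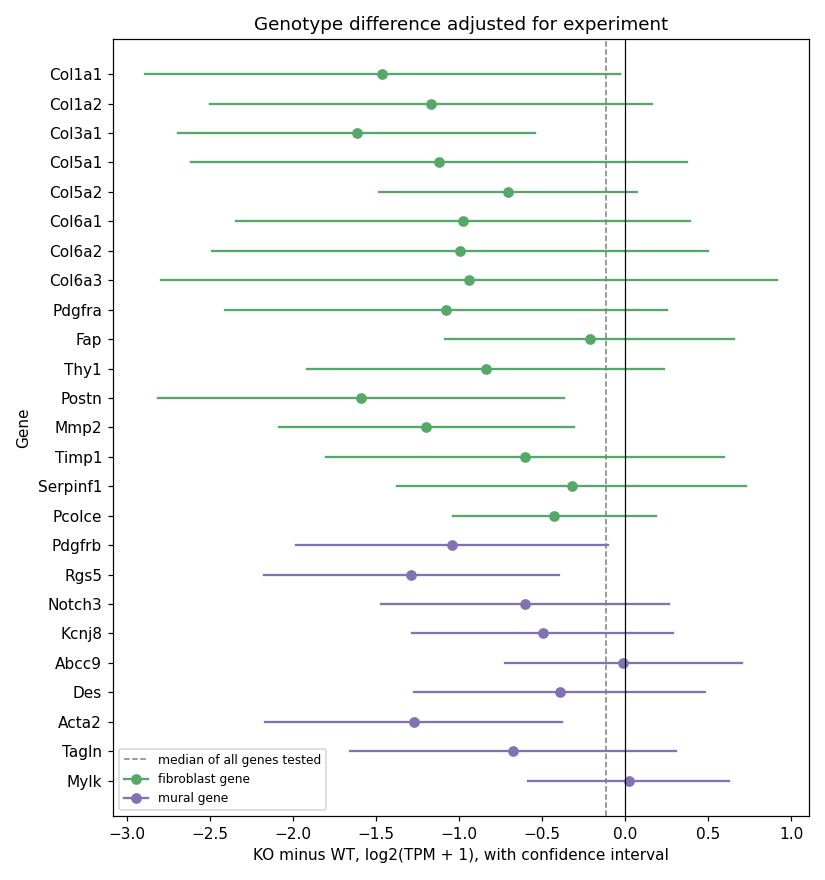
KO minus WT difference of the 25 tested genes on the log2(TPM + 1) scale, adjusted for experiment (points), with 95% intervals (lines); the dashed line is the median of all genes tested. Intervals of 7 genes lie below 0, those of the collagen VI genes are wide, and Abcc9 and Mylk lie near 0.

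The wide intervals of the collagens come with their spread between libraries. The residual SD was 2.14 for Col6a3, higher than for 99.4% of all genes tested, 1.87 for Col5a1, 1.79 for Col1a1 and 0.69 for Mylk. Values of the leukocyte markers were below 0 as well, and 0 of 14 passed an adjusted p of 0.05 by limma, beside 1 of 13503 genes. Their 14 genes, all tested, had a median difference of -1.46, each below 0, and for 11 the unadjusted p was under 0.05. Over all genes tested 64% were below 0 and 4.93% were lower at that level. The summed level of the leukocyte markers was 65.9 to 6674 TPM in WT and 43.6 to 297 TPM in KO. Tyrobp, a myeloid signalling gene, was listed at 0 as the KO median. Of 10 epithelial markers 1 (Krt8) was tested, at -1.55 ± 0.90, and 9 had a median of 0; the sums were 2.34 to 272 TPM in WT and 0 to 143 TPM in KO. The part of these cells in the result was not tested. Without E3-WT2 and the 3 libraries lowest in Pecam1, a choice made after seeing the data, the median over 26 tested genes was -0.41, beside -0.04 over all genes. Rgs5 and Acta2 were then the 2 lower at an unadjusted p under 0.05, beside 174 of 13214 genes in all, with -1.37 ± 0.47 and -1.16 ± 0.51. Col3a1 was at -0.92 ± 0.49 and Col6a3 at -0.04 ± 0.59.

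With both shared-header columns kept in experiment 2, the sign of the difference varied among the 4 experiments. In experiment 1, 2 of 16 fibroblast genes were lower in KO, with a median of 0.77. In experiments 2, 3 and 4 it was 16, 16 and 14 of 16, with medians of -1.68, -2.34 and -0.66. Of the 9 mural genes 4, 9, 8 and 8 were lower, with medians of 0.13, -1.15, -0.52 and -0.49. Mmp2, Rgs5, Kcnj8, Acta2 and Tagln had a lower KO mean in all 4 experiments. Acta2 was at -1.31, -1.51, -1.02 and -1.11 in experiments 1 to 4, whereas Col3a1 was at 0.19, -1.98, -3.79 and -1.09. Shb itself was at 0.29, -1.59, -0.06 and -1.85. The difference between experiments in the genotype effect passed the limma interaction test at an adjusted p of 0.05 in 0 of 25 genes and in 0 of all genes (0%), of which 518 had an unadjusted p under 0.05. Postn and Col5a2 were the 2 of the 25 at that level, at 0.0043 and 0.042 by the limma interaction test.

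Leaving out whole experiments moved the count. Without experiment 1, the count of genes lower at an unadjusted p under 0.05 was 13 of 25, beside 1020 of 13537 genes in all. Without experiment 2 it was 2 of 28 (Col3a1 and Acta2), beside 259 of 13149, so the count over all genes moved the same way. With each library left out in turn the count ran from 5 to 10, beside 417 to 873 lower over all genes. Col3a1, Postn, Mmp2, Rgs5 and Acta2 were among the genes counted in 21 of 21 fits. Without both E2-KO3a and E2-KO3b, in which Postn was listed at 0, Postn was not among them (-1.18 ± 0.58). Col1a1 was in 8 of 21 and Pdgfrb in 12 of 21. Acta2 was in 40 of 40 alternatives, which refit much the same libraries, and its smallest adjusted p over them was 0.577 by limma.

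Rgs5, Kcnj8 and Des differed in level between the 4 experiments. By the limma F test over experiments, adjusted over all genes, 3 of 9 mural genes and 0 of 16 fibroblast genes passed, beside 29.1% of all genes tested. Rgs5 (adjusted p 0.0043 by limma) had a median of 48.1 TPM in experiment 1, 5.82 in experiment 2, 34.6 in experiment 3 and 25.3 in experiment 4. Kcnj8 (adjusted p 0.012 by limma) had 9.53, 2.79, 12.2 and 3.98 TPM, and Des (adjusted p 0.021 by limma) had 6.92, 0.750, 3.57 and 1.86 TPM. The mural share, 33.3%, was near that of all genes. Each of the 3 was lowest in experiment 2, and without that experiment 0 passed.

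Across libraries, after the mean of each experiment but not of each genotype was taken off, collagen I, Col5a1 and the collagen VI genes varied together. Col5a2 went less with Col6a1 (r = 0.29) and Col5a1 (0.37) than with Col1a1 (0.65) and Col1a2 (0.63). As a description over 21 libraries, which share the TPM scale and differ in depth, the 120 fibroblast pairs had a median Pearson r of 0.43. The highest was Col6a1 with Col6a2, at 0.97. The 36 mural pairs had a median r of 0.50, the highest being Kcnj8 with Tagln at 0.79, and the 144 mixed pairs had 0.19. Pdgfrb went with the collagens, at 0.84 with Col6a2. Abcc9 went with Mylk at 0.78 and with Kcnj8 at 0.72, and against Col6a1 at -0.64.

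**Figure D4:**
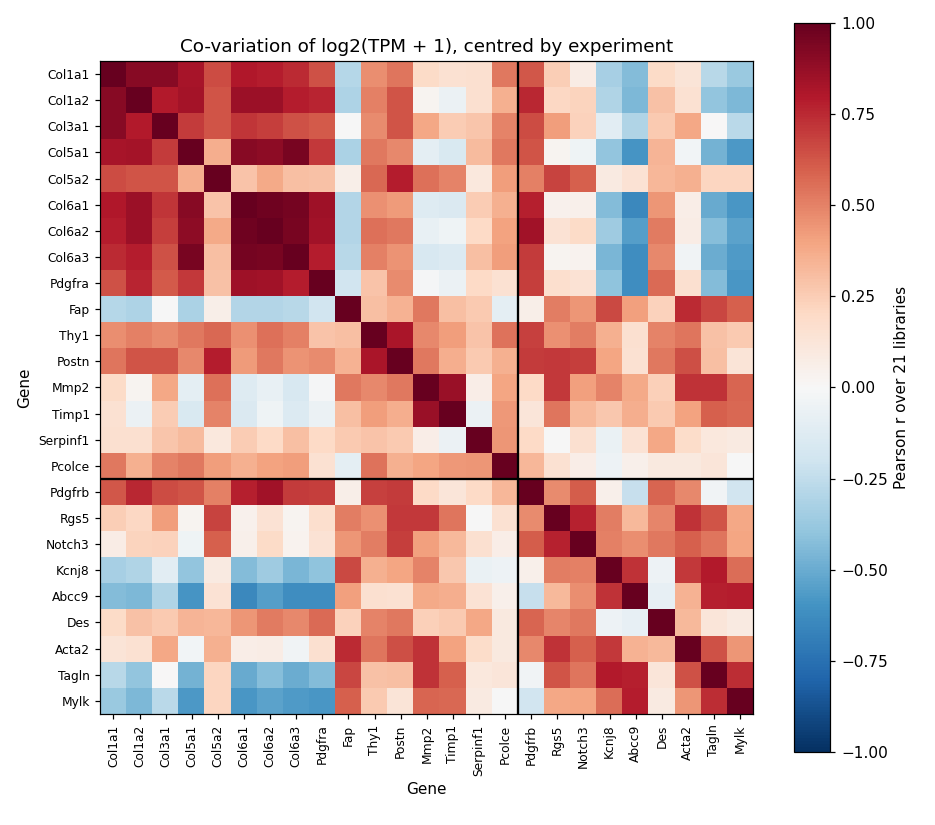
Pearson r between the 25 tested genes over 21 libraries, from log2(TPM + 1) centred by experiment; black lines part fibroblast genes (first 16) from mural genes (last 9). Most collagens and Pdgfra form a red block that Pdgfrb joins, and Col5a2 is paler in it; Kcnj8, Abcc9, Tagln and Mylk are red with each other and blue with Col5a1 and the collagen VI genes.

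Of 12 pairs tested by permutation within experiments, two-sided and adjusted over the 12, 5 passed. Genotype was not taken off, so a difference between KO and WT that both genes share is part of r. Col1a2 with Pdgfrb had r = 0.75 and Spearman rho = 0.78, each with a permutation p of 2e-05 (adjusted 0.00024). Without the 2 libraries farthest from the Col1a2 median r was 0.72 (adjusted permutation p 0.0011), and within the 7 libraries of experiment 2 it was 0.88 (exact permutation p 0.016). Those 7 include E2-KO3a and E2-KO3b, either of which may belong to experiment 4. No value within experiment 2 was taken without them. Col1a2 with Col3a1 had r = 0.80 (permutation p 0.00060, adjusted 0.0029) and rho = 0.75 (0.00048, adjusted 0.0029). Acta2 with Tagln had r = 0.64 (permutation p 0.0035, adjusted 0.010) and rho = 0.58 (0.0087, adjusted 0.021), and within experiment 2 r was 0.89 (exact permutation p 0.014). Col1a2 went against Pecam1 at r = -0.53 (permutation p 0.00073, adjusted 0.0029) and rho = -0.64 (0.0021, adjusted 0.0085). It went with Ptprc at r = 0.66 (permutation p 0.0043, adjusted 0.010) and rho = 0.66 (0.0035, adjusted 0.011).

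The last 4 of these rest in part on a few libraries. Without the 2 farthest libraries of each pair they had r = 0.58, 0.61, -0.42 and 0.48, each with an adjusted permutation p of 0.082. Without E2-KO3a and E2-KO3b, Acta2 with Tagln had r = 0.44 (adjusted permutation p 0.15). Those libraries, with Acta2 listed at 0, are also part of its value within experiment 2. Within experiment 2, Col1a2 had r = 0.75 with Col3a1 (exact permutation p 0.065), -0.73 with Pecam1 (0.063) and 0.85 with Ptprc (0.022). Experiments 1, 3 and 4 hold too few libraries for a value of their own. Pairs across the fibroblast and mural groups other than Col1a2 with Pdgfrb did not pass: r was 0.21 for Col1a2 with Rgs5 (adjusted permutation p 0.48) and 0.15 for Col1a2 with Acta2 (0.53). Pdgfrb had r = 0.47 with Rgs5, 0.48 with Acta2, -0.42 with Pecam1 and -0.41 with Pdgfb, the gene of its ligand, each with an adjusted permutation p of 0.079. Without the 3 libraries lowest in Pecam1, Pdgfrb with Rgs5 had r = 0.61 (adjusted permutation p 0.030). Acta2 with Pecam1 had r = 0.23 (adjusted permutation p 0.46).

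The mural genes differed among themselves in the libraries low in Pecam1. In the 3 libraries lowest in Pecam1, at 95.0, 242 and 461 TPM, Abcc9 was 2.68, 6.13 and 7.36 TPM, and Mylk was 8.20, 5.71 and 15.7 TPM, the 3 lowest values of Mylk. Pdgfrb was 21.0, its highest value, 7.33 and 15.6 TPM in the same libraries, and Col6a3 was 694, 112 and 352 TPM.

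**Figure D5:**
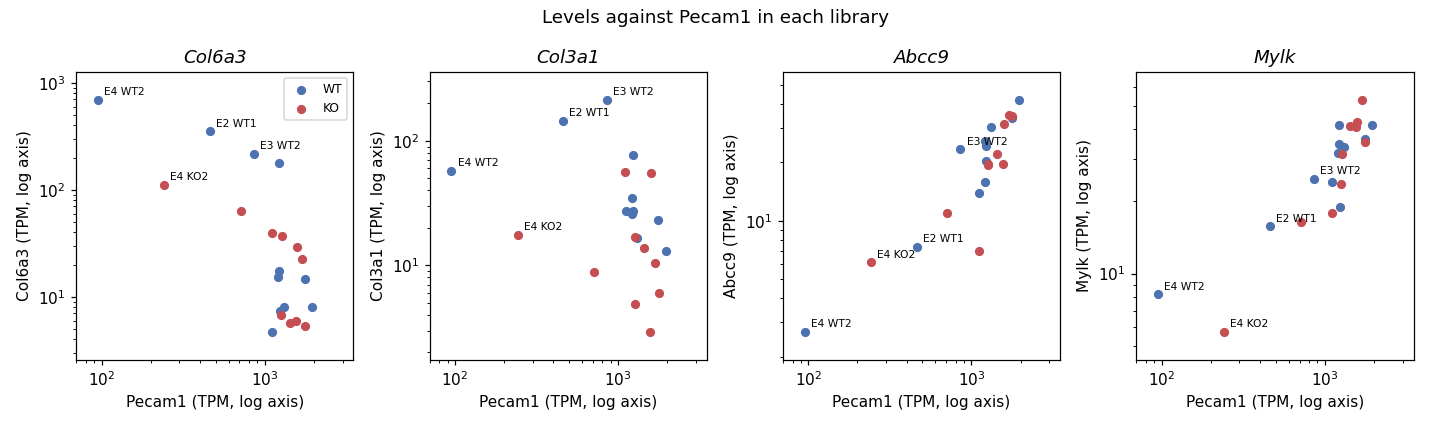
TPM of Col6a3, Col3a1, Abcc9 and Mylk (y, log axis) against Pecam1 (x, log axis) in each library, WT blue and KO red, with 4 libraries named. Col6a3 is highest at the lowest Pecam1 (694 TPM at 95.0 TPM), where Abcc9 is lowest (2.68 TPM).

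Other genes of the matrix and of mural cells were read from fixed lists. Of 34 matrix and collagen-processing genes 25 were tested, 21 had a value below 0, beside 64% of all genes tested, and the median was -0.27. At an unadjusted p under 0.05, 5 were lower and 0 higher, beside 4.93% and 0.948% of all genes tested. The adjusted threshold was passed by 0, beside 1 of all 13503 genes. Fbln2, a fibulin of elastic fibres, was at 126 to 288 TPM in WT and 37.8 to 179 TPM in KO (-0.87 ± 0.24), Loxl2, a cross-linking enzyme gene, at -1.55 ± 0.49, and Fbn1, fibrillin, at -0.85 ± 0.32. The most abundant were Sparc, with medians of 2015 TPM in WT and 2083 TPM in KO, Col15a1 (559 and 639 TPM) and Serpinh1, the collagen chaperone (411 and 441 TPM). These levels were far above those of Col1a1. Of 23 other mural genes 16 were tested, with a median of -0.32. At an unadjusted p under 0.05, 2 were lower (Anpep, -1.14 ± 0.51, and Tpm2, -1.22 ± 0.59), beside 4.93% of all genes tested.

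Of 18 signalling genes of pericyte recruitment 16 were tested, 6 had a value below 0, the median was 0.11, and 0 were lower or higher at an unadjusted p under 0.05. Over all genes tested 64% were below 0, and 4.93% were lower and 0.948% higher at that level. Pdgfb ran from 21.4 to 439 TPM in WT (median 266) and from 48.3 to 482 TPM in KO (median 289). The 15 endothelial markers had a median of 0.19, with 1 below 0 and 0 at an unadjusted p under 0.05, and summed to 628 to 12597 TPM in WT and 1841 to 12108 TPM in KO. Of 7 adipocyte markers 3 were tested, and 1 (Lpl, a lipase gene, -1.25 ± 0.46) was lower in KO at that level. Of 7 muscle markers 2 were tested (Des, at -0.39 ± 0.42, and Mylpf, a fast muscle myosin gene, at -0.94 ± 0.57).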

How the data were processed

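The data were RNA-seq of CD31-positive cells; libraries were made from 30 ng of total RNA with a stranded, ribosome-depleted kit, per the labels' protocols. The authors deposited TPM per gene and library, written with decimal commas, so the deposited values are already divided by gene length and scaled per library. Per the submitters' processing notes the genome was GRCm38. No aligner or counter is named in the labels used here. Genotype and experiment were taken from column names; 2 columns share a header and both were kept in experiment 2, and no column names KO replicate 3 of experiment 4. The test took genes that reached 1 TPM in 10 or more libraries, and log2(TPM + 1) was fitted over all of them with limma 3.58.1 (R 4.3.3, statmod 1.5.0; trended, robust prior) on genotype and experiment, with Benjamini-Hochberg adjustment at 0.05. The labels do not link libraries to tumours. With 11 WT libraries from 9 tumours and 10 KO libraries from 8, some libraries share a tumour. The spread behind a p-value is then partly technical. The fit and each n count libraries, not tumours. Correlations were permuted 100000 times within experiments (scipy 1.17.1), and exactly within experiment 2. The scripts were tested on simulated data. All 34 genes were named; of each other list, up to 3 genes with the highest mean and up to 3 with the smallest p were eligible to be named. The genes and lists were chosen with earlier results of these data known. Alternatives covered the pseudocount, filter, scaling, experiment term, shared columns, single libraries and whole experiments. Gene positions and overlaps are from GENCODE M21 and promoters from RefSeq (GRCm38).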

Additional observations from a re-analysis of the deposited data

Results flagged for a closer look

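Of 67 groups of 4 to 10 KO libraries with a value above 0, 15 had a library whose gap to the nearest other was large for the group's range (Dixon's test). Where all other libraries are listed at 0, the mark is given whatever the remaining value. The usual chance rate of about 1 group in 20 therefore does not apply here. Most were low values with the other libraries listed at 0. Among the 10 KO libraries, replicate 1 of experiment 1 stood apart for Dcn (7.58 TPM, the next at 0.590), Lum (1.92 TPM, the others at 0), Loxl1 (1.32 TPM) and Higd1b (2.28 TPM), and replicate 1 of experiment 2 for Cnn1 (0.250 TPM). Among the 4 KO libraries of experiment 2, replicate 1 stood apart because the other 3 were listed at 0: Postn was 3.49 TPM there, Des 1.59, Vtn 0.700, Higd1b 0.450, Cspg4 0.380, Cnn1 0.250, Loxl1 0.220, Dcn 0.170 and Mmp3 0.170 TPM. In the same group Mmp2 was listed at 0 in KO replicate 3a, with the next library at 5.41 TPM.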

How the results depend on the processing

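The count of genes passing for KO against WT over all genes, 1, was 2 with library medians set equal and 2 with quantile normalization, and 0 without experiment 1, 0 without experiment 2 and 0 with the replicate block; among the fibroblast and mural genes, of which 21 to 34 were tested, it was 0 in each of 40 alternatives. The 7 at an unadjusted p under 0.05 (666 lower over all genes) became 13 without experiment 1 (1020), 2 without experiment 2 (259) and 2 (174) without WT replicate 2 of experiment 3 and the 3 libraries lowest in Pecam1 (added after seeing the data). The 3 genes passing between experiments became 5 with quantile normalization and 0 without experiment 2. The 5 pairs passing became 3 without the 3 libraries lowest in Pecam1 and 1 without the 2 farthest libraries. The 3 were Col1a2 with Col3a1, Col1a2 with Pdgfrb, and Pdgfrb with Rgs5, which was not among the 5. The cause was not tested.

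Of single values, Abcc9 (-0.01) was above 0 at 0.001 with a pseudocount of 0.1, 0.10 with equal medians, 0.12 with quantile normalization, 0.049 with TPM rescaled without mitochondrial and the highest genes, 0.048 with the replicate block, 0.032 with either shared column in experiment 4, 0.17 without both, 0.13 without experiment 2 and 0.015 without experiment 3. With each library left out it ran from -0.181 to 0.130, and Mylk (0.02) from -0.070 to 0.235. Mylk was -0.15 without experiment 1, -0.05 without experiment 3 and -0.007 without the 4 libraries above. Fap was 0.19 with quantile normalization, 0.02 with the replicate block and 0.20 without both shared columns. Serpinf1 was 0.019 without the 3 libraries lowest in Pecam1, 0.27 without the 4 and 0.20 without experiment 3. Pcolce was 0.018 without the 4, and Notch3 was 0.002 without experiment 2. Col1a2 with Rgs5 had r = -0.027 without centring, and Col1a2 with Acta2 had r = -0.038 without the 2 farthest libraries. Other values kept their sign.

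Same-numbered WT and KO libraries had correlations of their deviations from -0.20 to 0.36, over 0.1 in 2 of 10 pairs. Both of those pairs were in experiment 4 (0.32 and 0.36). Where a genotype has 2 libraries in an experiment, their deviations mirror each other. The check therefore cannot decide whether the numbers pair the samples. With the replicate block 7 of the 25 genes were lower at an unadjusted p under 0.05, beside 685 of 13503 genes in all. TPM keeps no depth, so a gene listed at 0 may be missed at low depth.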
